A study of Mus musculus with 60 samples.

Results

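Huntingtin, its binding partners and transcription regulators reported to bind mutant huntingtin were followed through the hippocampus of a mouse model of Huntington's disease. The set was defined by name, as 8 rows (Htt, Hap1, Hip1, Hip1r, Rest, Sp1, Tbp and Ppargc1a) of an expression table of 24508 genes, and all 8 were measured in all 18 RNA-seq libraries. There were 9 libraries from wild-type (WT) mice and 9 from R6/1 mice, and the labels describe the 9 of each genotype as independent biological replicates. All mice were 30 weeks old and of a mixed CBA x C57BL/6 strain, and the RNA came from frozen hippocampal tissue. R6/1 mice carry, besides their own intact Htt gene, a transgene holding exon 1 of human huntingtin with a long CAG repeat under the human huntingtin promoter, so that a short fragment of the mutant protein is made on top of the normal mouse protein. The same tissue was also profiled by lamin B1 ChIP-seq, from 3 pools of 5 mice per genotype. Lamin B1 is a protein of the lamina under the nuclear envelope, and this ChIP-seq finds the long domains of chromatin that touch it. One list of domains was deposited per genotype.

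Huntingtin is a large scaffold protein that couples vesicles to the motors of microtubules and takes part in endocytosis. It does so through adaptors: Hap1 links it to dynactin and kinesin, while Hip1 and Hip1r join clathrin coats to actin. Normal huntingtin also holds the repressor REST in the cytoplasm of neurons, whereas the expanded polyglutamine fragment enters the nucleus and binds glutamine-rich transcription factors such as SP1 and TBP and lowers the activity of PGC-1 alpha, the product of Ppargc1a and a coactivator of mitochondrial genes.

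The polyglutamine tract that defines the disease is short in the mouse gene, and TBP has one of its own, so both are printed here from the NCBIM37 genome. The capitals mark the run of CAG and CAA codons, each of which codes for glutamine. The Htt stretch is the coding part of exon 1, at chr5:35104556-35104758 on the plus strand, and its run holds 7 codons, 6 of them CAG. The Tbp stretch is only the part of exon 3 around the run, at chr17:15641325-15641423 on the plus strand. Its run holds 13 codons, 9 of them CAG.
Htt exon 1: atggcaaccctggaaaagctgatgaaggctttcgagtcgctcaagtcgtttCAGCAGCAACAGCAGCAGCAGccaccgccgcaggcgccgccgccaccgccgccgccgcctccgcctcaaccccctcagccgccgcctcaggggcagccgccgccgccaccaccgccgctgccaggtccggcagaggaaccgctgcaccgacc
Tbp exon 3: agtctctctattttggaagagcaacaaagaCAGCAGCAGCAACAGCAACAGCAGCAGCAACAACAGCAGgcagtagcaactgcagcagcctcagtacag

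The promoters of Hap1 and Htt are shown because these genes had the highest levels of the set, and because SP1, TBP and CREB, the partner of the CREB-binding protein, each recognise a short promoter element. RefSeq's promoter table (build GRCm38.p6) matched 7 of the 8 genes, all but Rest. Its windows of 250 bases before to 50 after each gene start were searched on both strands for the GC box GGGCGG, the TATA box TATAAA and the cyclic AMP response element TGACGTCA, and the hits are in capitals below, where overlapping GC boxes run together. The 7 genes had 9 such windows. The GC box was found in 6 of the 9, from 5 genes, and in 35.7% of all 32851 promoters of that length. TATAAA was found in 2 of the 9, both of Hap1, and in 13.6% of all promoters. TGACGTCA was found in 1 of the 9, that of Htt, and in 1.79% of all. The Hap1 window had no GC box, and its TATAAA begins 12 or 25 bases past the start, depending on which of the 2 Hap1 starts in the table is used (12 for the stretch printed). The Htt window had 4 GC boxes, and its TGACGTCA begins 14 bases before the start. The stretches run from 250 bases before to 20 after the start, at chr11:100356109-100356378 on the minus strand for Hap1 and at chr5:34761490-34761759 on the plus strand for Htt. These matches describe the letters only, since no binding of these factors was measured.
Hap1 promoter: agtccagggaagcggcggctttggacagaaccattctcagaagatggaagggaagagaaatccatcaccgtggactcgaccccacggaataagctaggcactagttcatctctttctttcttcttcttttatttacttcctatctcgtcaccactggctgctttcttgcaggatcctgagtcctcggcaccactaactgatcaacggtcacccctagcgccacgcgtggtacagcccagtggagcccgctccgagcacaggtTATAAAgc
Htt promoter: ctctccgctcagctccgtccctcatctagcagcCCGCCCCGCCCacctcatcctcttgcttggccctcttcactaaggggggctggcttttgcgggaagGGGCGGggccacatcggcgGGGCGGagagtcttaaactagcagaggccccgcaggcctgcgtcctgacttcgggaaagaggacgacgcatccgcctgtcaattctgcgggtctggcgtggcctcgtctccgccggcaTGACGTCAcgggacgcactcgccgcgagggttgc

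Of the 8 genes, Hap1 and Hip1 rose in R6/1 hippocampus, none fell, and 6 (Htt, Hip1r, Rest, Sp1, Tbp and Ppargc1a) did not pass the test. Levels are RPKM, that is reads per kilobase of transcript scaled for depth, and each difference is a log2 fold change (log2 difference) of R6/1 over WT on the scale log2(RPKM + 0.5), which understates the change of low genes such as Rest. A gene passed when its limma p, adjusted by Benjamini-Hochberg over all 14446 genes tested, was under 0.05. In the whole tissue 48.3% of the genes tested passed, 24.8% higher and 23.5% lower in R6/1, so 2 of 8 is a smaller share than that of all genes. The median log2 fold change was 0.05 over the 8 genes and 0.00 over all genes tested. In no gene of the 8 were the 2 genotypes fully apart, against 11.9% of all genes tested. In the table deposited by the authors, 40.4% of the 18395 genes with an adjusted p-value were under 0.05, and of the 8 genes Hap1 and Hip1 were among them.

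**Figure D1:**
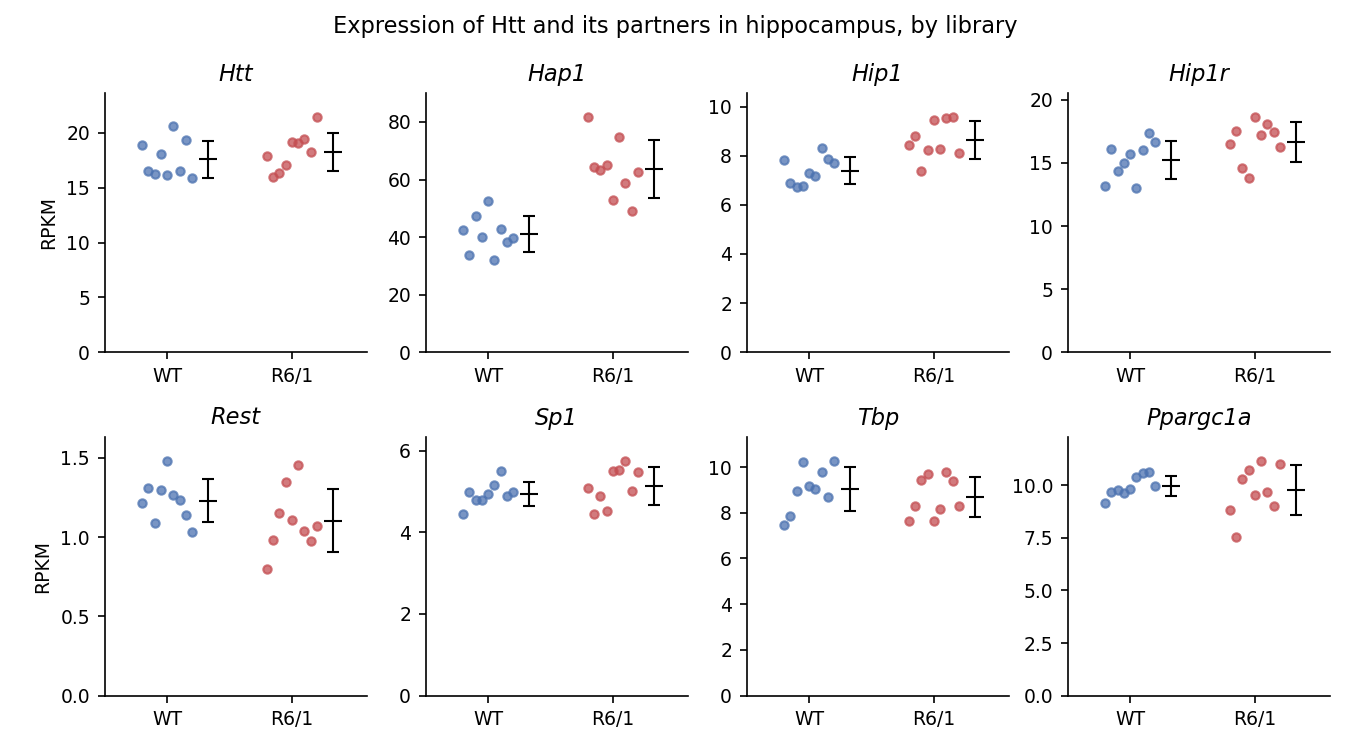
RPKM of each of the 8 genes in 9 WT (blue) and 9 R6/1 (red) libraries, 1 point per library, with the mean and SD as a cross bar and error bar on axes that start at 0. The Hap1 points are almost fully apart, with R6/1 at 49.1 to 81.7 RPKM and WT at 32.1 to 52.4 RPKM, whereas the points of Htt, Sp1, Tbp and Ppargc1a lie over each other.

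The libraries held between 12299434 and 16736544 reads on genes, so the 8 genes were counted with very different precision: Htt by 2540 to 4714 reads per library and Rest by 55 to 100. Markers of hippocampal cell types were themselves changed. All 6 dentate granule markers were lower in R6/1, with a summed level of 53.6 to 64.9 RPKM against 95.2 to 139 RPKM in WT. Of 6 inhibitory neuron markers 5 were lower, with a sum of 212 to 278 RPKM against 351 to 428 RPKM. Much of this sum was Sst, at 66.5 to 107 RPKM in R6/1 and 152 to 231 RPKM in WT. The ranges of Sst and Gad2 were apart between genotypes, whereas those of Gad1, Slc32a1, Pvalb and Vip overlapped. Lower levels were found in 5 of 6 CA1 and 5 of 5 CA3 pyramidal markers, and beyond neurons in 6 of 6 astrocyte, 4 of 6 oligodendrocyte and 3 of 6 microglia markers. The summed astrocyte markers were at 569 to 839 RPKM in R6/1 and at 840 to 1109 RPKM in WT. Choroid plexus markers varied from 25.5 to 1074 RPKM among WT and from 38.8 to 1742 RPKM among R6/1 libraries, with 0 of 6 passing limma's test. Fewer cells of a type and less RNA per cell cannot be told apart in bulk tissue. Fits with dentate granule, inhibitory neuron and choroid plexus marker covariates are given at the end. Dentate granule and inhibitory neuron markers differed with genotype, so the part of these shifts in the results below cannot be told apart from genotype.

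Htt itself was at a similar level in both genotypes. It ranged from 15.9 to 20.6 RPKM in WT (median 16.6) and from 16.0 to 21.5 RPKM in R6/1 (median 18.2). Only 1 R6/1 library exceeded the highest WT library and none was below the lowest, so the ranges overlapped almost fully. Of the 9 R6/1 libraries, 7 were above the WT median. The means were 17.6 ± 1.69 RPKM (SD, n = 9) and 18.3 ± 1.72 RPKM (SD, n = 9), a log2 fold change of 0.05 with a 95% interval of -0.07 to 0.18 (limma adjusted p = 0.474). The interval leaves room for a small change in either direction. The table has 1 row for Htt (chr5:35104389-35255183, plus strand, NCBIM37), and whether any reads of the human transgene fall in it cannot be told from gene totals.

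Hap1, the adaptor between huntingtin and the motor complexes and a gene with high expression in the hypothalamus, had the largest response of the set. WT libraries ranged from 32.1 to 52.4 RPKM with a median of 39.9, and R6/1 libraries from 49.1 to 81.7 RPKM with a median of 63.2. Of the 9 R6/1 libraries, 8 were above every WT library, and the overlap came from a single pair, WT replicate 5 at 52.4 RPKM and R6/1 replicate 8 at 49.1 RPKM. The mean rose from 41.0 ± 6.29 to 63.6 ± 10.1 RPKM (SD, n = 9 each), a log2 fold change of 0.63 (SE 0.095, 95% interval 0.43 to 0.82, limma adjusted p = 1.84e-05) or 1.54-fold. Of the 14446 genes tested, 189 had a larger increase. Leaving out any 1 library kept the log2 fold change of Hap1 between 0.58 and 0.67. The authors' deposited table gives a log2 fold change of 0.61 with an adjusted p of 8.29e-10.

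Since Hap1 is high in the hypothalamus, markers of that neighbouring tissue were looked up: the hypothalamic genes Hcrt, Pmch, Agrp, Pomc, Avp and Oxt were near 0 in every library. Their summed level was 0.823 to 3.12 RPKM in WT and 0.729 to 1.70 RPKM in R6/1, no marker of the 6 reached the minimum for a test, and Hcrt was listed at 0 in 13 of 18 libraries and Oxt in 11. Thalamic markers were lower in R6/1, at 8.02 to 16.4 RPKM against 15.7 to 64.9 RPKM in WT, with 3 of 4 passing limma's test. The 64.9 RPKM was WT replicate 6 alone, and the next WT library, replicate 5, was at 31.9 RPKM. WT replicate 6 also had the highest hypothalamic sum, 3.12 RPKM, and the lowest Hap1, 32.1 RPKM. Pttg1 was under 1 RPKM in WT replicates 1, 3 and 5 and R6/1 replicate 3 and at least 4.45 RPKM in the other libraries, a division noticed after the values were seen. In WT, Hap1 was 42.3 to 52.4 RPKM in the 3 libraries with little Pttg1 and 32.1 to 42.7 RPKM in the others. In R6/1, the 1 such library had Hap1 at 63.2 RPKM, within the 49.1 to 81.7 RPKM of the others. With Pttg1 as a covariate the Hap1 estimate was 0.66 (limma adjusted p = 3.28e-06).

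Because Hap1 acts as a partner of huntingtin, the ratio of the 2 messages was taken within each library. This removes scaling between libraries from the plain ratio. It does so largely, but not fully, for the log2 ratio, where 0.5 RPKM was added to each level. The median library had 2.24 times as much Hap1 as Htt in WT and 3.81 times as much in R6/1. The log2 ratio was 1.19 ± 0.311 in WT (SD, n = 9), ranging from 0.63 to 1.66, and 1.76 ± 0.276 in R6/1 (SD, n = 9), ranging from 1.41 to 2.16. Of the 9 R6/1 libraries, 5 were above the highest WT library and all 9 were above the WT median. The difference of 0.57 had a two-sided exact permutation p of 0.00103 and an adjusted p of 0.00309 over the 3 ratios tested.

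**Figure D2:**
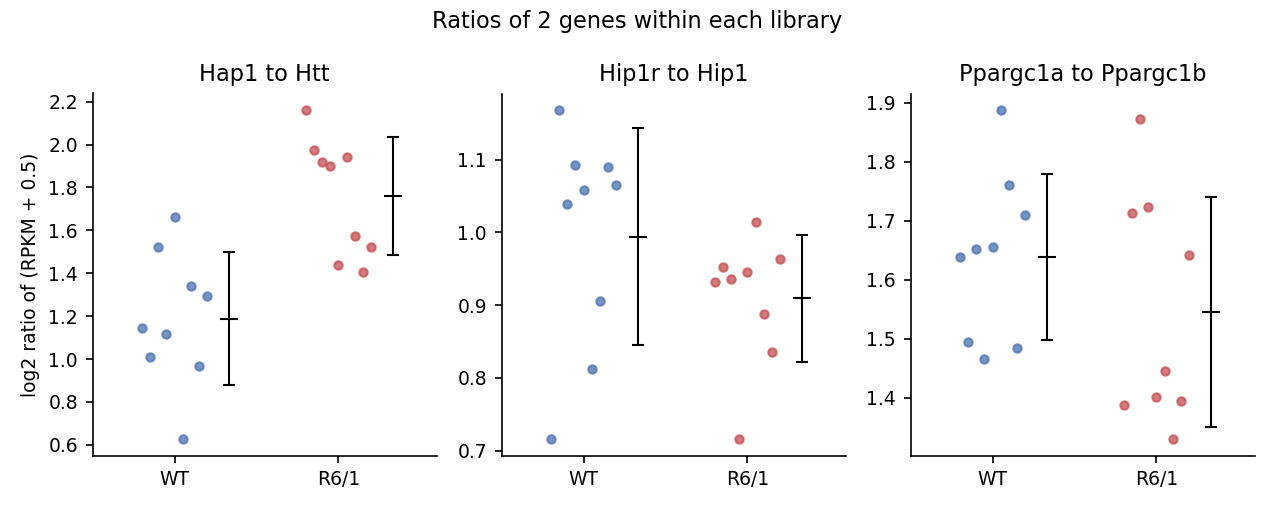
Log2 ratios of (RPKM + 0.5) of 2 genes within each library, for Hap1 to Htt, Hip1r to Hip1 and Ppargc1a to Ppargc1b, with 1 point per library (WT blue, R6/1 red) and the mean and SD of 9 libraries; the axes do not start at 0. The Hap1 to Htt ratio has a mean of 1.76 in R6/1 and 1.19 in WT, and the genotypes overlap in every ratio shown.

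The other genes of huntingtin-linked transport and binding moved in both directions. Of 29 genes in this list, 10 rose and 9 fell, together 65.5% against 48.3% of all genes tested, and 10 did not pass, with a median log2 fold change of 0.03. Ahi1, whose protein forms a complex with HAP1, rose from 41.2 ± 2.75 to 63.0 ± 6.42 RPKM (limma adjusted p = 6.10e-08), a log2 fold change of 0.60, and every R6/1 library (49.4 RPKM or more) was above every WT library (44.0 RPKM or less). Kalrn, a guanine nucleotide exchange factor of dendritic spines and a known partner of HAP1, had the largest fall of the list, from 40.9 ± 5.03 to 22.3 ± 2.32 RPKM (log2 difference -0.86, limma adjusted p = 8.48e-09). Sort1, the sorting receptor sortilin, fell from 126 ± 10.3 to 78.4 ± 3.94 RPKM (log2 difference -0.68, limma adjusted p = 3.55e-10). Both Kalrn and Sort1 were lower in every R6/1 library than in any WT library. Markers of several cell types were also lower in these libraries, as given above.

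Hip1, a clathrin and actin adaptor first found as a huntingtin-interacting protein, rose modestly. It ranged from 6.73 to 8.31 RPKM in WT (median 7.30) and from 7.38 to 9.58 RPKM in R6/1 (median 8.43). All 9 R6/1 libraries were above the WT median and 5 were above the highest WT library, while the other 4 lay within the WT range. The mean went from 7.40 ± 0.557 to 8.64 ± 0.758 RPKM (SD, n = 9 each), a log2 fold change of 0.21 (SE 0.054, 95% interval 0.10 to 0.32, limma adjusted p = 0.00301). Changes of this size are common in these libraries, with 2359 genes showing a larger increase. The authors' deposited table gives a log2 fold change of 0.22 with an adjusted p of 0.000472.

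Hip1r, the paralogue of Hip1 that binds the same coat, was expressed at about the level of Htt and its difference did not pass the test. It ranged from 13.0 to 17.3 RPKM in WT (median 15.7) and from 13.8 to 18.6 RPKM in R6/1 (median 17.2). In R6/1, 7 of 9 libraries were above the WT median, 4 of them above every WT library, and the 2 lowest R6/1 libraries lay below it. The log2 fold change was 0.12, with a 95% interval of -0.01 to 0.26 (limma adjusted p = 0.109). Without R6/1 replicate 4, the lowest R6/1 library at 13.8 RPKM, it was 0.16 with a limma adjusted p of 0.0368. The authors' deposited table gives 0.12 with an adjusted p of 0.115. The log2 ratio of Hip1r to Hip1 averaged 0.99 ± 0.150 over the WT and 0.91 ± 0.0876 over the R6/1 libraries (SD, n = 9 each). None of the 9 R6/1 libraries was above the WT median of that ratio, yet the difference of -0.09 had an exact permutation p of 0.160 (adjusted over the 3 ratios, 0.240). Without WT replicate 1, the lowest WT library, the difference was -0.12 and its adjusted exact permutation p 0.0413, so this comparison depends on 1 library.

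**Figure D3:**
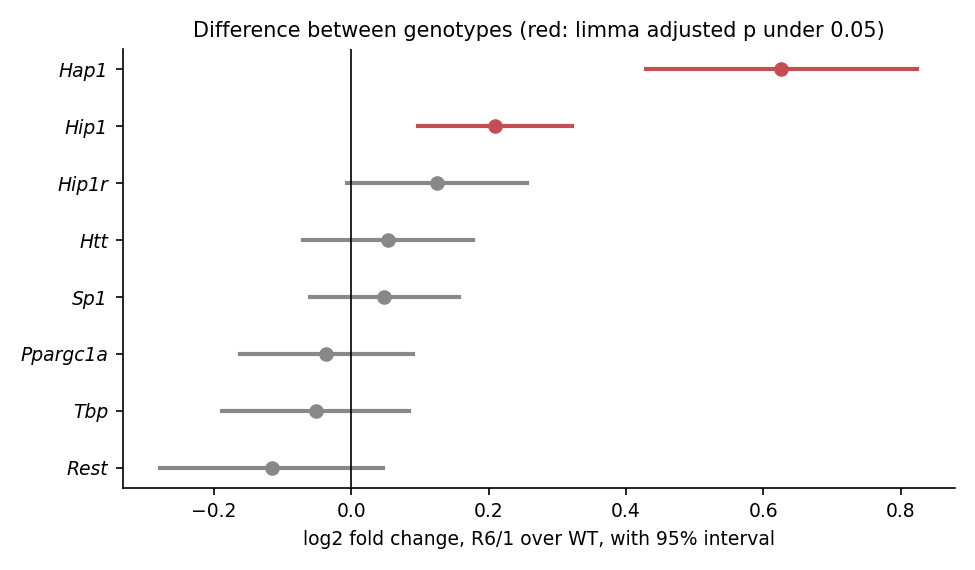
Log2 fold change of R6/1 over WT for the 8 genes, ordered by size, with 95% intervals from limma on log2(RPKM + 0.5), n = 9 libraries per genotype; red marks a limma adjusted p under 0.05. Hap1 at 0.63 and Hip1 at 0.21 stand to the right of 0, and the intervals of the other 6 include 0.

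Among 25 genes of the clathrin coat and endocytosis, the share passing was 40.0%, against 48.3% of all genes tested. Of these 25, 2 rose, 8 fell and 15 did not pass, with a median log2 fold change of -0.03. This split turned with the scaling of the libraries: 8 rose and 4 fell with libraries scaled by their own read totals, and 8 rose and 6 fell after quantile normalization. With the deposited scaling, the 2 that rose were Cltc, the clathrin heavy chain (114 ± 14.3 to 128 ± 9.36 RPKM, log2 fold change 0.17), and Picalm, a clathrin assembly protein (39.8 ± 0.930 to 44.6 ± 1.99 RPKM, log2 fold change 0.16). Eps15, an endocytic scaffold, fell from 74.1 ± 4.36 to 59.7 ± 1.67 RPKM (log2 difference -0.31) with no overlap between genotypes. Dnm1, the neuronal dynamin that cuts vesicles from the membrane, fell from 338 ± 22.3 to 282 ± 14.8 RPKM (log2 difference -0.26), with some overlap.

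Rest, which encodes the repressor of neuronal genes, was the least expressed of the 8. It ranged from 1.03 to 1.48 RPKM in WT (median 1.24) and from 0.799 to 1.45 RPKM in R6/1 (median 1.07). There were 3 R6/1 libraries below the lowest WT library, and 2 were above the WT median. The log2 fold change was -0.12 with a 95% interval of -0.28 to 0.05 (limma adjusted p = 0.229), and the authors' deposited table gives -0.16 with an adjusted p of 0.251. Rest was counted by 55 to 100 reads per library, and the interval leaves room for a change in either direction.

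Of 18 REST cofactors 7 rose, 1 fell and 10 did not pass (44.4% passing, against 48.3% of all genes), with a median log2 fold change of 0.09. Hdac2, a histone deacetylase, rose from 31.9 ± 2.07 to 37.4 ± 3.00 RPKM (log2 difference 0.22). The 1 that fell was Rilpl1 (log2 fold change -0.31, from 20.9 ± 2.09 to 16.7 ± 1.43 RPKM), whose place among REST cofactors is uncertain. Of 27 REST target genes 13 fell, 5 rose and 9 did not pass (66.7% passing, against the same 48.3%), with a median of -0.06. Chgb, which encodes the secretory granule protein chromogranin B, fell most, from 250 ± 30.4 to 114 ± 5.40 RPKM (log2 difference -1.12, limma adjusted p = 1.34e-11). Kcnip2, a potassium channel subunit, fell from a median of 67.8 RPKM to one of 37.9 RPKM (log2 difference -0.91, limma adjusted p = 1.74e-08), and neither gene showed overlap between genotypes. L1cam, a neuronal adhesion molecule, rose from 25.8 ± 1.11 to 30.8 ± 1.62 RPKM (log2 difference 0.25), and Celsr3, a cadherin of axon guidance, from 12.5 ± 2.17 to 14.6 ± 1.35 RPKM (log2 difference 0.23). Markers of neurons, astrocytes and oligodendrocytes were lower in the same libraries, as given above. Their part in these counts cannot be told apart from genotype.

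Sp1, the GC-box binding activator whose glutamine-rich domain contacts mutant huntingtin, did not differ detectably. It ranged from 4.46 to 5.50 RPKM in WT (median 4.93) and from 4.44 to 5.76 RPKM in R6/1 (median 5.09). There were 2 R6/1 libraries above the WT range, 1 was below it and 6 lay inside it. The log2 fold change was 0.05 with a 95% interval of -0.06 to 0.16 (limma adjusted p = 0.469). Of its family, 5 of 8 genes were expressed enough to be tested and 3 of them rose. None fell, so 60.0% of the 5 passed, against 48.3% of all genes tested. Sp4, a relative with high expression in neurons, rose from 5.02 ± 0.329 to 6.90 ± 0.453 RPKM (log2 difference 0.42, limma adjusted p = 3.87e-07), and the lowest R6/1 library at 6.16 RPKM was above the highest WT library at 5.75 RPKM. Sp9, known from developing interneurons, was low and rose from 1.68 ± 0.228 to 2.66 ± 0.614 RPKM (log2 difference 0.52), with overlap. The third was Sp3, the ubiquitous relative of Sp1, which rose by 0.19 on the log2 scale (limma adjusted p = 0.00268).

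Tbp, which encodes the TATA-binding protein at the core of the general factor TFIID, also showed no detectable change. It ranged from 7.47 to 10.3 RPKM in WT (median 9.06) and from 7.63 to 9.79 RPKM in R6/1 (median 8.31), and the whole R6/1 range lay inside that of WT. The log2 fold change was -0.05 with a 95% interval of -0.19 to 0.08 (limma adjusted p = 0.540). Tbp (chr17:15636852-15665343, plus strand, NCBIM37) overlaps Pdcd2 on the opposite strand. The libraries were stranded, but whether the counting used strand is not given in the sources used here, so some of its 175 to 305 reads per library could belong to Pdcd2. Of 26 genes for TFIID and the general factors that work with TBP, 10 rose, 2 fell and 14 did not pass, with a median of 0.09. That is 46.2% passing, against 48.3% of all genes tested. The TBP-associated factor genes Taf3 (3.97 ± 0.267 to 5.10 ± 0.328 RPKM, log2 fold change 0.33) and Taf2 (8.40 ± 0.402 to 10.5 ± 0.448 RPKM, log2 fold change 0.30) rose with no overlap. Taf6, another TBP-associated factor, fell by 0.17 on the log2 scale, and Drap1, a subunit of a repressor that binds TBP, fell by 0.11.

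Ppargc1a had a similar mean in both genotypes and a wider spread in R6/1. WT libraries lay close together, from 9.16 to 10.6 RPKM (median 9.80), and R6/1 libraries ranged from 7.52 to 11.2 RPKM (median 9.65). There were 3 R6/1 libraries above the whole WT range, 3 were below it and 3 within it. The means were 9.95 ± 0.482 and 9.75 ± 1.19 RPKM (SD, n = 9 each), a log2 fold change of -0.04 with a 95% interval of -0.16 to 0.09 (limma adjusted p = 0.654). Without R6/1 replicate 2, the lowest library at 7.52 RPKM, the estimate was 0.0070. The difference in spread was noticed after the values were seen and was not tested. Ppargc1b, the related coactivator PGC-1 beta, averaged 2.87 ± 0.322 RPKM over the WT and 3.03 ± 0.555 RPKM over the R6/1 libraries (log2 fold change 0.06, limma adjusted p = 0.629). The log2 ratio of Ppargc1a to Ppargc1b was 1.64 ± 0.140 in WT and 1.55 ± 0.194 in R6/1, a difference of -0.09 (exact permutation p = 0.255, adjusted over the 3 ratios 0.255), although 5 of 9 R6/1 libraries were below the lowest WT library.

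Of 21 genes for the PGC-1 family and its partner factors 20 were tested, and 5 rose, 1 fell and 14 did not pass. The share passing was 30.0%, against 48.3% of all genes tested. Rxra, a nuclear receptor that PGC-1 alpha coactivates, rose from 7.89 ± 0.741 to 11.2 ± 0.743 RPKM (log2 difference 0.48, limma adjusted p = 3.25e-07). Sirt1, the deacetylase that activates PGC-1 alpha, rose from 5.08 ± 0.381 to 6.16 ± 0.378 RPKM (log2 difference 0.26), and neither gene showed overlap. Mef2d, a transcription factor that acts with PGC-1 alpha, was the 1 that fell, by 0.11 on the log2 scale. Of 20 PGC-1 alpha target genes 7 rose, 3 fell and 10 did not pass (50.0% passing, against the same 48.3%). Gpx1, a glutathione peroxidase, rose from 35.0 ± 1.93 to 47.8 ± 3.42 RPKM (log2 difference 0.44), and Idh3a, a subunit of a Krebs cycle enzyme, from 85.2 ± 10.1 to 107 ± 5.65 RPKM (log2 difference 0.33). Cat, the peroxide-degrading enzyme catalase, fell from 21.3 ± 2.05 to 14.5 ± 1.70 RPKM (log2 difference -0.54), so 2 peroxide-removing enzymes of the list went opposite ways. Pvalb, a target in parvalbumin interneurons that also stands in the inhibitory marker list, fell from 30.2 ± 5.27 to 23.2 ± 2.64 RPKM (log2 difference -0.36).

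Of 22 other transcription regulators known to bind mutant huntingtin 13 rose, 2 fell and 7 did not pass, together 68.2% past the test against 48.3% of all genes, with a median log2 fold change of 0.17. Nfya and Nfyc, which encode subunits of the CCAAT-binding factor NF-Y, had the largest increases. Nfya rose from 5.33 ± 0.711 to 13.3 ± 1.34 RPKM (log2 difference 1.25, limma adjusted p = 5.05e-11) and Nfyc from 15.5 ± 0.591 to 26.9 ± 2.00 RPKM (log2 difference 0.77, limma adjusted p = 1.34e-11). Nfyb, the remaining subunit of NF-Y, fell from 22.6 ± 1.83 to 19.6 ± 0.658 RPKM (log2 difference -0.20, limma adjusted p = 7.79e-04), so the subunits of this complex did not move together. Bcl11b, a zinc finger factor of projection neurons, fell from 26.3 ± 4.25 to 17.2 ± 1.32 RPKM (log2 difference -0.59, limma adjusted p = 4.30e-06). Crebbp and Ep300, the acetyltransferases CBP and p300, rose by log2 fold changes of 0.45 (limma adjusted p = 3.65e-05) and 0.32 (limma adjusted p = 3.31e-05). Trp53, the p53 gene, rose by 0.34 (limma adjusted p = 7.78e-06). Sp3, Crebbp, Ep300 and Trp53 are named here after their values were seen.

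**Figure D4:**
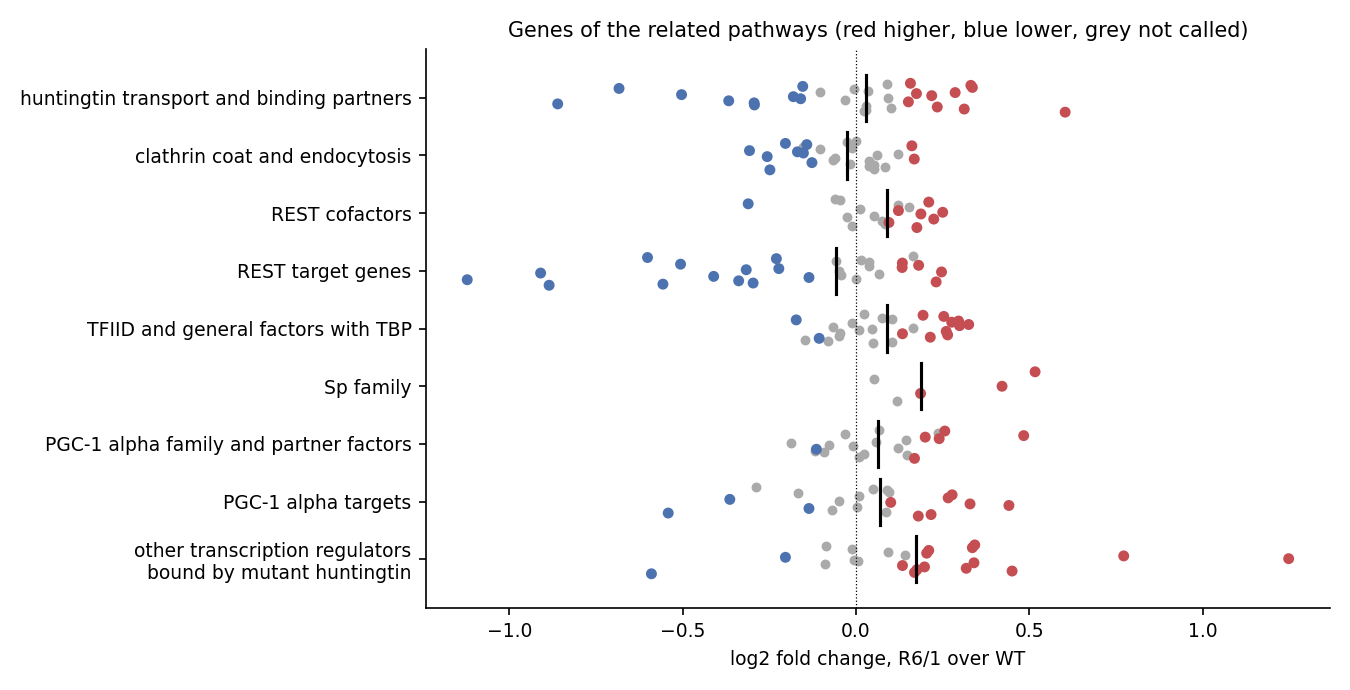
Log2 fold change of R6/1 over WT for each tested gene of the 9 lists related to the 8 genes, 1 point per gene, with the list median as a black bar; red points rose and blue points fell at a limma adjusted p under 0.05, and grey points did not pass. The largest rise is Nfya at 1.25 and the largest fall is Chgb at -1.12.

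Counting each of the 188 genes in the 9 lists once, 184 were tested, of which 57 rose, 38 fell and 89 did not pass. This is 51.6% past the test, close to the 48.3% of all genes. The split of higher and lower calls depends on how libraries are scaled. With the deposited scaling 3586 genes were higher and 3394 lower in all, so 51.4% of the calls were higher, whereas with libraries scaled by their own read totals 5113 were higher and 2525 lower, or 66.9% higher. With that scaling 15 genes of the transport list rose and 7 fell, 11 REST cofactors rose and 1 fell, 17 of the TFIID list and 10 of the PGC-1 family list rose and none of either fell.

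The order of the levels in WT hippocampus was Hap1, Htt, Hip1r, Ppargc1a, Tbp, Hip1, Sp1 and Rest, on the RPKM scale. Neighbours in that order were fully apart in both genotypes for Hap1 over Htt, Hip1r over Ppargc1a, Hip1 over Sp1 and Sp1 over Rest. Htt and Hip1r overlapped, with Htt the higher in 8 of 9 libraries of each genotype. Ppargc1a exceeded Tbp in 7 WT and 6 R6/1 libraries. Tbp exceeded Hip1 in 8 of 9 WT but 4 of 9 R6/1 libraries, with mean levels of 8.71 and 8.64 RPKM in R6/1, so this pair could not be ordered there.

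The genes closest to each member in their variation between libraries of 1 genotype were found from deviations from the genotype mean over all 18 libraries. These are the highest of all genes tested, both genes of a pair share the library and its scaling, and the values are descriptions. Htt went with Birc6 (Pearson r = 0.93), Nsd1 (r = 0.91) and Cacna1e (r = 0.91), and Hap1 with Rhbdl3 (r = 0.88), Trpc7 (r = 0.84) and Rxrg (r = 0.83). Hip1 went with Zfp236 (r = 0.87) and Hip1r with Dnm2 (r = 0.92), which encodes a dynamin. Rest, Sp1, Tbp and Ppargc1a were closest to Mfsd7a (r = 0.83), Zfyve26 (r = 0.86), Ints10 (r = 0.88) and Rad50 (r = 0.89). Between the 8 genes themselves r ran from -0.35 for Htt and Hap1 to 0.54 for Hip1 and Hip1r.

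On NCBIM37, 5 of the 8 genes lie on chromosome 5: Htt, Ppargc1a, Rest, Hip1r and Hip1. Of all 8, only Ppargc1a started inside a lamin B1 domain, and it did so in both genotypes. In WT the start of Ppargc1a (chr5:51845488-51958964, minus strand) lay near the middle of a domain of 24.8 Mb, chr5:39294001-64121000, with the upper edge 12.2 Mb away. In R6/1 it lay in a domain of 13.4 Mb, chr5:38998001-52429000, whose upper edge was 0.470 Mb from the start, and the next R6/1 domain began at 54575001. The WT domain thus had a gap in the R6/1 list that opened close to the Ppargc1a start on its upstream side, while its mean RNA level was 9.95 RPKM in WT and 9.75 RPKM in R6/1.

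The start of Tbp was 0.347 Mb from the nearest domain in WT and 2.16 Mb in R6/1. The nearest domain to Rest was 0.597 Mb away in WT and 0.523 Mb in R6/1, and that of Htt 4.19 and 3.89 Mb. Hap1, the gene with the largest change in RNA, was 6.79 Mb from a domain in WT and 6.90 Mb in R6/1. Hip1, Hip1r and Sp1 were at least 14.2 Mb away in both lists. With 1 list per genotype, the shifts of these edges have no replicate spread and no test.

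**Figure D5:**
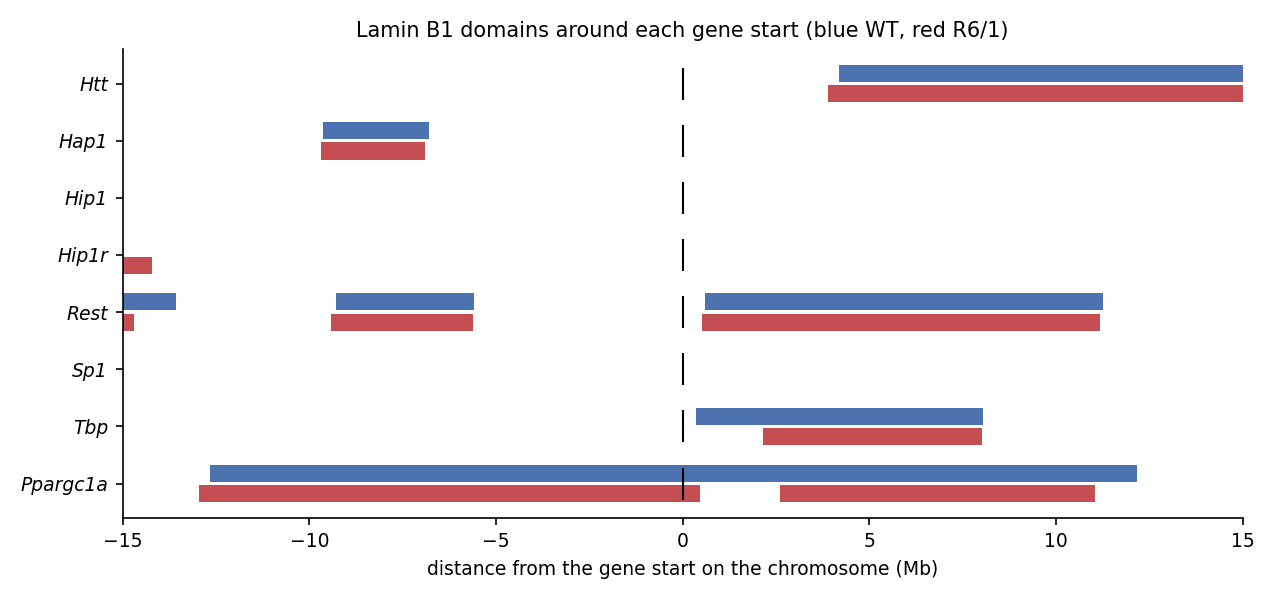
Lamin B1 domains of WT (blue) and R6/1 (red) within 15 Mb of the start of each of the 8 genes, as distance on the chromosome in Mb, with the gene start at 0. The WT domain around Ppargc1a is split in R6/1, and the domain next to Tbp begins 0.347 Mb from its start in WT and 2.16 Mb in R6/1.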

How the data were processed

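The authors deposited RPKM for 24508 genes in 18 RNA-seq libraries, made with TopHat, DESeq2 and build mm9, per the submitters' processing notes. The role of each tool and the counter are not given in the sources used here. The authors' deposited table of the comparison holds, per gene, a mean normalized count (a signal scaled for depth), a log2 fold change, its test score and p-values before and after adjustment. RPKM times the mean normalized count over the mean RPKM gave normalized counts per library. For each library a factor, from 0.801 to 1.18, was chosen that brought them closest to whole reads. With it 99.87 to 99.91% of values were whole within 0.05 of a read, which gives the reads per library. The highest values were left out of that check. The authors' domain lists give a score per domain, per the file names from the caller EDD, and the score was not used here. The domains were placed on NCBIM37. No domain passes a chromosome end there, and 3 WT and 4 R6/1 domains end exactly at the last base of a chromosome. No other build was checked.

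The gene test was limma 3.58.1 (R 4.3.3; lmFit and eBayes with trend, two-sided) on log2(RPKM + 0.5) over genes averaging 0.5 RPKM or more, with 9 libraries per genotype and no covariate. On simulated data of 14395 genes it recovered 30% of log2 changes of 0.3, 92% of 0.6, 98% of 1 and 100% of 2, with 1.88% of calls false. In that simulation only 50 tested genes were changed at each of 0.3, 0.6 and 1, and 47 at 2. The same variability setting was used for every gene. In the real libraries 48.3% of genes passed, which changes the adjustment of p, so these recovered shares do not carry over to them. Ratios were tested over all 48620 ways to choose 9 of 18 libraries, where the smallest p is 4.11e-05. Named are the 8 genes, up to 2 rises and 2 falls per list ranked by log2 fold change among those passing, and the nearest 3 genes in variation, of which some are printed. A few genes that this rule names are not reported here. The genes and lists, written from general knowledge, were chosen with earlier results of these data known. The labels number replicates 1 to 9 in both genotypes without stating a pairing: same-numbered libraries correlated by -0.05 to 0.24, over 0.1 in 3 of 9 pairs, so they were not treated as pairs. The alternatives were pseudocounts of 0.1 and 1, no filter or a minimum mean of 2 RPKM, other scalings, a block on the replicate number, limma without trend or with library weights, voom on the recovered reads, marker covariates and leaving out each library; the Pttg1 covariate was added after the data were seen. ATAC-seq was not analysed here.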

Additional observations from a re-analysis of the deposited data

How the results depend on the processing

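Hap1 and Hip1 passed limma's test under every scaling, filter, pseudocount, model and left-out library tried. Both genes lost it only with 2 covariates, built from the dentate granule and from the inhibitory neuron markers. The summed RPKM of each of these marker lists was fully apart between genotypes. Whether the covariates as fitted were also fully apart was not tested. With the dentate covariate, 165 genes in all were higher and 225 lower, and pathway genes numbered 7 higher and 1 lower. The log2 fold changes were then 0.62 for Hap1 (limma adjusted p = 0.342), 0.11 for Hip1 (0.815), -0.24 for Hip1r, 0.35 for Tbp and 0.24 for Ppargc1a. With the inhibitory covariate, the counts were 243 and 351 in all and 4 and 7 in the pathways. The log2 fold changes were then 0.74 for Hap1 (0.121), 0.043 for Hip1 (0.910), -0.048 for Htt and 0.18 for Ppargc1a. The cause was not tested. With libraries scaled to their own totals, Hip1r passed (0.20, limma adjusted p = 0.0212) and Htt was at 0.13 (limma adjusted p = 0.0656). Tbp was then at 0.017, Ppargc1a at 0.034 and 90 pathway genes were higher. With a choroid plexus covariate Hip1r also passed (0.14, limma adjusted p = 0.0188).

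Leaving out each library, log2 fold changes ran from 0.58 to 0.67 for Hap1, 0.19 to 0.24 for Hip1, 0.10 to 0.16 for Hip1r, 0.03 to 0.08 for Htt, 0.03 to 0.07 for Sp1, -0.15 to -0.08 for Rest, -0.08 to -0.03 for Tbp and -0.060 to 0.0070 for Ppargc1a. The ratio differences ran from 0.50 to 0.63 for Hap1 to Htt, -0.12 to -0.061 for Hip1r to Hip1 and -0.13 to -0.06 for Ppargc1a to Ppargc1b. Hip1r passed only without R6/1 replicate 4, and Hip1r to Hip1 only without WT replicate 1. A fit with the replicate number as a block (replicate block) gave 3666 genes higher and 3467 lower, limma adjusted p of 0.000299 for Hap1 and 0.00140 for Hip1, and changed no call among the 8 genes. Rest has no value under a mean of at least 2 RPKM. The 8 genes were counted by between 55 (Rest) and 4979 (Hap1) reads per library, and the share of depth in the errors was not tested.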
